A study of Homo sapiens with 12 samples.

Results

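Peaks of dSpCas9 binding were sought on the messenger RNAs of 133 genes whose products write, erase or read chromatin marks or move nucleosomes, out of 20046 protein-coding genes. Members were the protein-coding genes of GENCODE version 44 whose symbol is a family name with a number or suffix (KDM, KMT, KAT, HDAC, SIRT, SMARC, CHD, ARID, BRD, SETD, EHMT, DNMT, CBX, MBD or INO80), together with EP300, EP400 and CREBBP. A peak was counted for a gene when 1 nt or more of it fell on an exon of that gene, on the same strand. Of the 133 genes, 51 (38.3%) had a peak in at least 1 of the 4 deposited peak lists, and 82 had none. Among all protein-coding genes the share with a peak in at least 1 list was 18.1%. In total, 298 of the 18128 deposited peaks lay on members, and none of the 298 lay on more than 1 member. Of the 298, 27 also overlapped an exon of another protein-coding gene, among them peaks on KDM4A, KAT14, CHD4 and KMT2A.

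The peaks come from enhanced cross-linking and immunoprecipitation (eCLIP), in which UV light joins a protein to the RNA it touches in living cells and the RNA recovered with the protein is sequenced. The protein was catalytically dead Streptococcus pyogenes Cas9 (dSpCas9) without a nuclear localization signal, carrying a V5 or a 3xFLAG tag, and it was expressed from a plasmid in HEK 293T cells, a human embryonic kidney line, to ask which cellular RNAs Cas9 binds without its guide RNA. For each tag there were 2 immunoprecipitation (IP) libraries, 2 size-matched inputs (the same membrane region cut from lysate not subjected to IP) and 2 IP libraries with the same antibody from cells given the empty plasmid, 12 libraries in all, each from cells irradiated with 400 mJ/cm2 of UV light, which the labels give as applied 2 times. Each list compares the IP of 1 tag with 1 control: V5 over size-matched input, V5 over empty vector IP, FLAG over size-matched input and FLAG over empty vector IP. The controls are called input and vector control below.

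For every peak the authors gave the log2 of the ratio of IP to control reads as a geometric mean over both replicates (the log2 enrichment below) and a −log10 p-value. The lowest log2 enrichment in the lists is 3.00. No read count and no value per replicate was given, so the depth behind a peak is unknown, replicate error cannot be stated, and no test between groups was run. Intervals given for shares are 95% Wilson intervals, which cover counting error only and treat peaks as independent, although neighbouring peaks of 1 mRNA are not. The lists of 1 tag share their IP libraries. How much of each mRNA the cells contained was not analysed here, so a gene without a peak and a gene with little mRNA cannot be told apart.

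Chromatin is regulated by enzymes that add chemical groups to histones or DNA (writers), enzymes that remove them (erasers), proteins that bind the marked sites (readers) and complexes that slide, evict or exchange nucleosomes with the energy of ATP (remodelers). These proteins work mainly in the nucleus, but their mRNAs are spliced, exported and translated in the cytoplasm like others. Many of them are large, with long coding sequences. By family, 35 members were counted as writers (KMT, KAT, SETD, EHMT, DNMT, EP300, CREBBP), 38 as erasers (KDM, HDAC, SIRT), 39 as remodelers (SMARC, CHD, ARID, INO80, EP400) and 21 as readers (BRD, CBX, MBD). The symbols do not define function strictly. A trimmed gene list used below leaves out 15 of the 133 genes. Their products were judged to act mainly elsewhere or without the activity of their family, such as the mitochondrial sirtuins SIRT3, SIRT4 and SIRT5. The choice was not exhaustive: HDAC6, which acts in the cytoplasm, was kept, and many other members are not enzymes.

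The sites on which the description turns are the stretches found in all 4 lists. The lists were intersected within each tag and then between the tags, keeping a stretch where at least 50% of the first interval was covered on the same strand. Of the 749 stretches left in all transcripts, 17 lay on members, in 10 genes (7.52%, where the background over protein-coding genes was 2.07%). These were the writers KMT2A, EHMT2 and SETD7, the erasers KDM4A, HDAC5 and KDM5C, the remodelers CHD3, SMARCA4 and INO80, and the reader CBX6. Of the 17, 14 lay in the CDS, 3 in the 3′ UTR and 0 in the 5′ UTR. EHMT2, CHD3 and KDM4A each held 3 neighbouring stretches, at mRNA positions 2242 to 2290, 3701 to 3760 and 2970 to 3029. The 17 are therefore not independent sites. One stretch of at most 30 nt from each of the 10 mRNAs is shown, 5′ to 3′ on the transcribed strand as DNA letters of hg38. Capitals mark a GT followed by the 5 bases predicted to form a stem, the GU-loop:5nt-stem motif modelled on the guide RNA, and the sequences without capitals had no such call.

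KMT2A (chr11:118484916-118484945, plus strand): tctgttcctataacacccagggtggtttgc
EHMT2 (chr6:31886777-31886806, minus strand): tggtgcagcgtgGTGGCTGtgtctatagca
SETD7 (chr4:139507314-139507343, minus strand): agccgcttcctgGTGGAAGttaggtgctaa
KDM4A (chr1:43703629-43703658, plus strand): ctccaGTTTGGTcctcctgctgaaggggaa
HDAC5 (chr17:44083578-44083607, minus strand): gtgcgcatggcaGTGGGCTgcctgctggag
KDM5C (chrX:53210786-53210815, minus strand): ttggaacagtctGTACTGTgccacatcaat
CHD3 (chr17:7903272-7903301, plus strand): gcctttagccgggctcatcggattggccag
SMARCA4 (chr19:11024349-11024378, plus strand): tgcgacatGTCTGCGctgcagcgagtgctc
INO80 (chr15:40980153-40980182, minus strand): agagtcctgacctgccagtggtctttggat
CBX6 (chr22:38862747-38862776, minus strand): ctgagccaggagGTCCTGGaggagagccag

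Peaks of V5 over input lay on 37 members (27.8%, background 13.6%), and those of FLAG over input on 39 (29.3%, background 13.2%). Over the vector control, V5 peaks lay on 21 members (15.8%, background 6.78%) and FLAG peaks on 16 (12%, background 4.96%). A peak in all 4 lists was found for 12 members (9.02%, background 2.79%), and these 12 were also the members found in both vector-control lists. The members' share lay above the background in every list. Taken over genes found in 1 or more lists instead, the shares came close together: 72.5% of such members and 75.0% of all such genes were in the V5 list over input, and 31.4% and 27.5% in the FLAG list over the vector control. That base is built from the same lists and leaves out genes without a peak. It therefore cannot show whether members had peaks more often than other genes.

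Length moved with these shares. The canonical mRNAs of the members had a median length of 5150 nt, against 2885 nt over all protein-coding genes. The median was 5718 nt for members with a peak in some list and 4374 nt for members with none. Within genes whose mRNA measured 4000 to 6000 nt, 36.8% of 38 members and 18.5% of all genes had a V5 peak over input, and 36.8% and 18.6% a FLAG peak. In mRNAs of 2000 to 4000 nt the V5 shares were 26.7% of 30 members and 13.9% of all genes, while the FLAG shares, 16.7% and 13%, lay closer together. From 6000 nt on they were 27.5% of 51 members and 18.5% of all genes in V5, and 39.2% and 19.6% in FLAG. Of the 14 members under 2000 nt, 1 had a V5 peak (background 8.11%) and 0 had a FLAG peak (Wilson upper limit 21.5%, background 7.31%). Counted per kb of canonical mRNA over all members, there were 0.135 peaks in each list over input, against 0.0882 (V5) and 0.0874 (FLAG) over all protein-coding genes. The part of mRNA abundance in these shares was not tested.

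The classes overlapped widely in how many genes had peaks. In V5 over input the shares were 28.6% of writers, 21.1% of erasers, 25.6% of remodelers and 42.9% of readers. In FLAG they were 28.6%, 23.7%, 35.9% and 28.6%. The order of the classes thus changed between the tags, and the Wilson intervals of all 4 classes overlapped in each list, for example 24.5 to 63.5% for readers and 11.1 to 36.3% for erasers in V5.

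**Figure D1:**
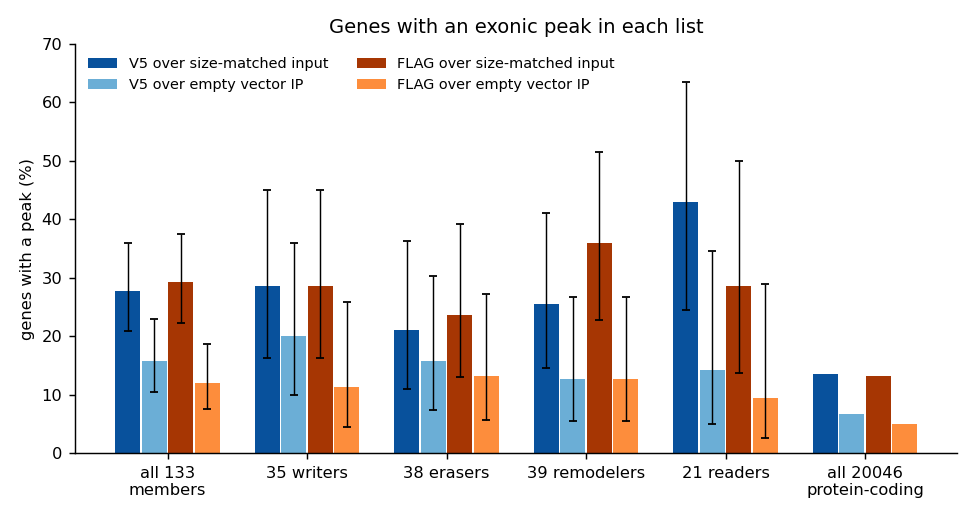
Percentage of genes with an exonic peak in each of the 4 lists, for all members, for each class and for all protein-coding genes; bars start at 0 and error bars are 95% Wilson intervals, drawn for the members and classes. Members stand at 27.8% (V5) and 29.3% (FLAG) over input, against 13.6% and 13.2% of protein-coding genes, and the intervals of the classes overlap.

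The log2 enrichment of member peaks lay close to that of other peaks. The median log2 enrichment of member peaks was 3.59 in V5 over input, where it was 3.60 over all peaks on exons of protein-coding genes. In FLAG over input it was 3.56 against 3.61, over the V5 vector control 3.55 against 3.62, and over the FLAG vector control 3.66 against 3.59. Reader peaks had the lowest class medians over input, 3.43 in V5 and 3.25 in FLAG, eraser peaks stood at 3.83 and 3.80, and writer peaks at 3.65 and 3.83. A log2 above 4 was reached by 11 of 26 V5 eraser peaks (42.3%) and 7 of 37 V5 reader peaks (18.9%), where the share over all peaks was 26.7%. In FLAG the counts were 12 of 28 (42.9%) and 1 of 18 (5.56%), against 28.15%. Without KDM4A and HDAC5, erasers had 3 of 10 (30%) in V5 and 4 of 10 (40%) in FLAG, with medians of 3.73 and 3.58.

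Where on the mRNA the peaks lay differed more between the classes. Eraser peaks lay almost wholly in the CDS: 23 of 26 in V5 (88.5%, 71.0 to 96.0%) and 25 of 28 in FLAG (89.3%, 72.8 to 96.3%) over input. Reader peaks lay mostly in the 3′ UTR, 27 of 37 in V5 (73.0%, 57.0 to 84.6%) and 13 of 18 in FLAG (72.2%, 49.1 to 87.5%), where all protein-coding peaks had 37.9% and 40.0%. Writers had 58.3% (V5) and 63.3% (FLAG) of their peaks in the CDS and remodelers 56.25% and 44.4%, against 51.9% and 51.0% over all protein-coding peaks. Readers had 24.3% (13.4 to 40.1%) of their V5 peaks and 22.2% (9.0 to 45.2%) of their FLAG peaks in the CDS, below the eraser intervals, but the peaks of a class come from few mRNAs.

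Region length was set beside these shares. In the mRNAs that had V5 peaks over input, the CDS made up 57.9% of the length in erasers and 42.2% in readers, with 64.9% in writers and 66.8% in remodelers. In the FLAG list it was 59.4%, 34.4%, 63.9% and 63.9%. Over all protein-coding genes with a V5 peak the CDS was 44.6% of the length. When each mRNA was weighted by its number of peaks, the 3′ UTR made up 68.4% of the reader length in V5 and 68.2% in FLAG, against 73.0% and 72.2% of their peaks. Without CBX6 it made up 54.4% and 59.5%, against 68.75% and 70.0% of the peaks. For erasers the weighted CDS share was 63.2% and 65.7%, against 88.5% and 89.3% of their peaks.

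**Figure D2:**
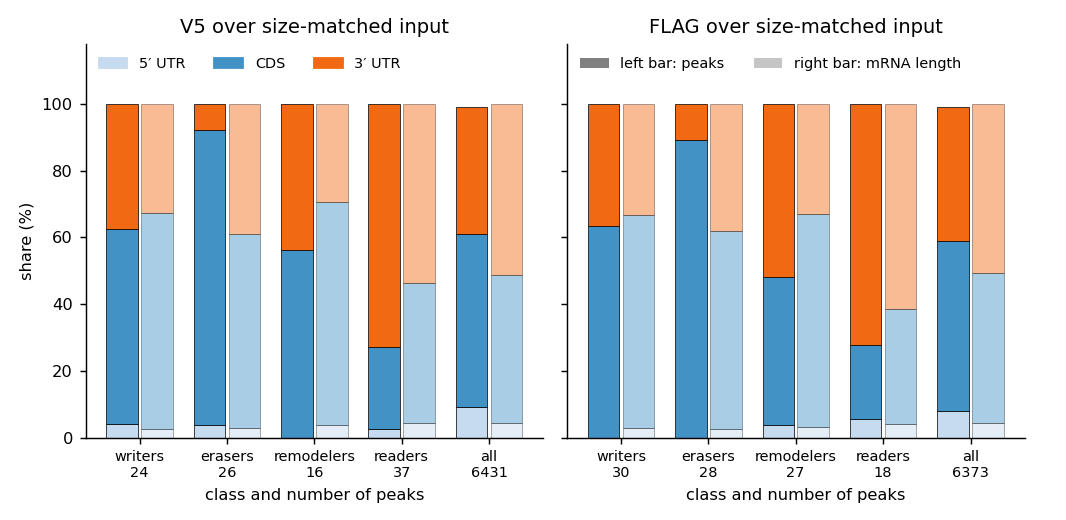
For each class and for all protein-coding genes, the left bar gives the percentage of peaks over input in the 5′ UTR, CDS and 3′ UTR of the canonical transcript and the pale right bar the percentage of mRNA length in each region of the genes that had a peak; numbers under the bars are peaks, and a bar short of 100% lacks peaks outside the canonical transcript. Erasers show 88.5% (V5) and 89.3% (FLAG) of peaks in the CDS, readers 73.0% and 72.2% in the 3′ UTR.

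The eraser share did not rest on the largest holders alone. KDM4A and HDAC5, picked after their counts were seen, held 16 of the 26 V5 eraser peaks and 18 of the 28 FLAG peaks, and without them 10 of 10 V5 peaks and 9 of 10 FLAG peaks were in the CDS. Counted by gene, all 8 erasers with a V5 peak over input and 8 of 9 with a FLAG peak had at least 1 in the CDS, and 1 of 8 and 2 of 9 had at least 1 in the 3′ UTR. Among all genes with a peak, 59.0% (V5) and 56.3% (FLAG) had one in the CDS. Over the vector control, eraser peaks were in the CDS in 14 of 17 cases for V5 and 17 of 17 for FLAG, where all protein-coding peaks had 62.2% and 48.4%. Writer peaks had a like share there in V5, 9 of 11, and 5 of 8 in FLAG. Peaks of all members had 62.1% and 76.5%. The reader counts rested in large part on CBX6, which held 21 of the 37 V5 peaks. Without it, 11 of 16 V5 reader peaks (68.75%) and 7 of 10 FLAG reader peaks (70.0%) were in the 3′ UTR. Of those 11, BRD3 and CBX2 held 4 each. Counted by gene, the reader pattern was not seen in V5 over input. There 6 of 9 readers with a peak had at least 1 in the 3′ UTR and 6 of 9 at least 1 in the CDS. In FLAG these were 5 of 6 and 3 of 6.

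The 5′ UTR was sparse. It held 3 member peaks in V5 over input (2.91%, on KAT14, KDM4A and CBX6) and 2 in FLAG (1.94%, on SMARCA4 and CBX2), where all protein-coding peaks had 9.27% and 7.97%. The 5′ UTRs made up 3.30% and 3.07% of the length of these mRNAs, and 4.25% and 4.31% over all protein-coding genes with a peak. No member peak lay outside the canonical transcript.

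Writers are taken first, by gene. KMT2A, which methylates histone H3 at lysine 4 and is the catalytic subunit of a COMPASS-type complex, held the most writer peaks, with 6 in V5 and 9 in FLAG over input and 1 in each list over the vector control. The stretch shared by the 4 lists, 47 nt at chr11:118484908-118484954, lies in exon 10 of 36, around codon 1430 of 3972. Its log2 enrichment was 3.60 in V5 and 3.76 in FLAG over input, and 3.02 and 3.27 over the vector control. The last 2 values are near the lower limit of the lists. V5 and FLAG peaks also met in exon 11, in exon 27 and at the start of the 3′ UTR, but without a peak over the vector control there.

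EHMT2 (G9a), which methylates histone H3 at lysine 9, had 3 peaks in each of the 4 lists, all within mRNA positions 2238 to 2290. They gave 3 shared stretches in exons 17 and 18 of 28, at chr6:31886775-31886815, chr6:31886670-31886682 and chr6:31886642-31886667. The highest log2 enrichment was 4.01 in V5 and 4.81 in FLAG over input, and 4.33 and 3.86 over the vector control. In each list the peaks that face each other across intron 17 had identical values, so they do not count as independent sites. The mRNA had no other peak. Its paralog EHMT1 had 1 peak, in V5 over input only (log2 of 3.46).

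SETD7, which adds a single methyl group to lysine 4 of histone H3 and to several other proteins, had all its peaks in the 3′ UTR, a region of 5625 nt in an mRNA of 6808 nt. There were 4 peaks each in V5 and FLAG over input, 1 in V5 and 3 in FLAG over the vector control. The shared stretch, 146 nt at chr4:139507253-139507398, begins far from the coding sequence, with its midpoint 4337 nt past the stop codon. Its log2 enrichment was 4.40 (V5) and 3.91 (FLAG) over input and 4.49 and 3.30 over the vector control. It was the longest of the 17. None of the other 10 SETD genes had a peak in any list.

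CREBBP, a histone acetyltransferase and transcriptional coactivator, led the writers when the V5 and FLAG maxima over input, 4.56 and 4.63, were averaged. These maxima lay at different sites, in exon 3 (V5) and exon 2 (FLAG), and at the V5 site FLAG had 4.03. CREBBP also had peaks over both vector controls, with log2 values of 3.16 (V5) and 3.11 (FLAG), yet no shared stretch. The V5 peak over the vector control was centred at mRNA position 1462, in exon 2, and the FLAG peak at 1642, in exon 3, 180 nt apart. Its close paralog EP300 had no peak in any list. KMT2C, a COMPASS-type enzyme of enhancers, reached 3.70 in V5 and 4.16 in FLAG over input and 3.05 over the V5 vector control. The maxima over input were centred at mRNA positions 7252 (V5) and 7260 (FLAG). Touching peaks centred at 7184 (V5) and 7188 (FLAG) had 3.43 and 4.10. The peak over the V5 vector control was centred at 7184, and all of these lay in exon 36.

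Among the erasers, KDM4A had the highest log2 enrichment in every list except FLAG over input, where KDM5C (5.22) and KDM5A (4.75) were higher. KDM4A removes methyl groups from lysines 9 and 36 of histone H3. It held 30 peaks, with 9 in V5 and 8 in FLAG over input and 8 and 5 over the vector control. The highest log2 enrichment was 5.22 in V5 and 4.62 in FLAG over input, and 4.71 and 4.58 over the vector control. By its V5 maximum it ranked 86 of the 2717 genes with a peak in that list, and 377 of 2639 in FLAG. All 4 values were above 4.5, which held for no other member.

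The 3 shared stretches of KDM4A lie at chr1:43697985-43698013 in exon 19 and at chr1:43703621-43703628 and chr1:43703629-43703692 in exon 20 of 22, between codons 943 and 962 of 1064, and the latter pair abut. The 2 motif calls in these stretches fall in the 64-nt stretch. A further group of peaks stood in exon 18 in every list, with log2 values from 3.31 to 4.60. V5 peaks in the 5′ UTR (4.06 over input and 3.88 over the vector control) had no FLAG counterpart. KDM4A exons are shared with the readthrough gene ENSG00000284989, and reads of the 2 cannot be separated here.

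HDAC5, a class IIa histone deacetylase, held 28 peaks, all in the CDS. There were 7 in V5 and 10 in FLAG over input and 4 and 7 over the vector control. Its highest log2 enrichment was 4.19 in V5 and 4.48 in FLAG over input and 3.83 and 3.93 over the vector control. Peaks were spread from exon 4 to exon 26 of 27 rather than gathered at 1 place. The 2 shared stretches lie in exon 11 (chr17:44091404-44091476, 73 nt, around codon 406 of 1122) and exon 18 (chr17:44083568-44083639, 72 nt, codon 802). Peaks in exons 16 and 17 were in 3 lists and missing from V5 over the vector control.

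Of the other 10 HDAC genes, HDAC6, which deacetylates tubulin in the cytoplasm, had 1 peak, in FLAG over input, with a log2 of 3.00. HDAC1, HDAC2 and HDAC3, the deacetylases of the main corepressor complexes, had none. Of the 7 sirtuins, SIRT6 alone had a peak, in V5 over input (3.11).

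KDM5C, which removes methyl groups from lysine 4 of histone H3, had a compact site in exon 11 of 26. The shared stretch, 68 nt at chrX:53210757-53210824, had a log2 enrichment of 3.95 in V5 and 4.58 in FLAG over input and 4.07 and 3.91 over the vector control. The FLAG peak next to it reached 5.22 over input, rank 101 of 2639 genes, and V5 had 1 further peak in exon 26 (3.34). Its paralog KDM5A was in all 4 lists too, with 4.31 (V5) and 4.75 (FLAG) over input and 3.70 and 3.02 over the vector control. The maxima over input lay at different sites, in exon 20 (V5) and exon 21 (FLAG). Where the tags overlapped over input, in exon 23, they had 3.50 and 4.60. In KDM5A the peaks over the vector control of V5 and FLAG lay 571 nt apart, in exons 23 and 21, and left no shared stretch.

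KDM5B had peaks in both FLAG lists and in neither V5 list. The fourth KDM5 gene, KDM5D, had no peak. KDM7A, a demethylase of lysines 9 and 27 of histone H3, was higher in V5, with 3 touching V5 peaks in exon 1 that reached 4.61 and a FLAG peak of 3.17 over input. Of all 20 KDM genes, 9 had a peak in at least 1 list, where the share was 38.3% of members and 18.1% of protein-coding genes.

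Among the remodelers, SMARCA4 (BRG1), an ATPase of the BAF complexes, was highest when the V5 and FLAG maxima over input were averaged (4.65). In FLAG over input it had 5 peaks and a maximum log2 of 5.49, rank 59 of 2639 genes and the highest value of any member. In V5 it had 1 peak at 3.81, rank 1322 of 2717, below CHD3 (4.76), SMARCD1 (4.58) and INO80 (4.33). Over the vector control it stood at 4.27 in V5, below CHD3 (4.69), and at 3.67 in FLAG, below ARID3B (4.25). The shared stretch, 77 nt at chr19:11024349-11024425 in exon 21 of 35, around codon 1010 of 1647, had the largest −log10 p of the 17 in FLAG over input (59.7) and 33.4 in V5. The 2 highest FLAG values belonged to short peaks of 6 and 13 nt beside it, and at the stretch itself V5 and FLAG stood at 3.81 and 5.18. SMARCA2, the alternative ATPase of these complexes, had no peak.

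CHD3, an ATPase of the nucleosome remodeling and deacetylase complex NuRD, had 3 peaks each in V5 and FLAG over input and 2 each over the vector control. The 3 shared stretches lie in exon 22 (chr17:7903048-7903061) and exon 23 (chr17:7903271-7903302 and chr17:7903303-7903345) of 40, between codons 1163 and 1183 of 2000. The highest log2 enrichment was 4.76 in V5 and 3.94 in FLAG over input, and 4.69 and 3.52 over the vector control, so V5 was above FLAG with either control. The related CHD4 had 2 peaks in FLAG over input, up to 3.63, and none in the other lists.

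INO80, the ATPase of its namesake complex, had exactly 1 peak in each list, at one place. The shared stretch of 91 nt at chr15:40980122-40980212 has its midpoint 56 nt past the stop codon. Log2 values were 4.33 in V5 and 3.97 in FLAG over input, and 3.94 and 3.41 over the vector control. The other 5 INO80 genes had no peak.

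SMARCD1 and SMARCC1, core subunits of BAF complexes, had peaks mainly in the 3′ UTR. SMARCD1 reached 4.58 in V5 and 3.93 in FLAG over input, and 3.47 over the V5 vector control. SMARCC1 reached 3.73 and 4.30, and 3.42 over the FLAG vector control. ARID3B, a DNA-binding factor that is a remodeler by family name only, had 7 peaks, with maxima of 3.27 in V5 and 4.19 in FLAG over input and 4.25 over the FLAG vector control. In these 3 mRNAs the vector-control list that held a peak was the list of 1 tag only, and no shared stretch followed.

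CBX6, a chromodomain subunit of Polycomb repressive complexes, held more peaks than any other member, 46 in the 4 lists. There were 21 in V5 and 8 in FLAG over input and 16 and 1 over the vector control. Only 6 genes had more V5 peaks over input (rank 7 of 2717). The peaks were scattered over most of the mRNA of 6052 nt, whose 3′ UTR measures 4787 nt. The highest log2 enrichment was 4.64 in V5 and 4.08 in FLAG over input and 4.33 and 3.10 over the vector control.

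The shared stretch of CBX6, 59 nt at chr22:38862721-38862779 with its midpoint 3459 nt past the stop codon, had log2 values of 4.64 (V5) and 4.08 (FLAG) over input and 3.95 and 3.10 over the vector control. Its −log10 p of 65.7 in V5 over input was the highest of any member peak. It was also GC-rich, at 74.6%. All 8 FLAG peaks over input overlapped a V5 peak.

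The other readers had no shared stretch. CBX2, also a Polycomb subunit, held 12 peaks, with maxima of 4.11 in V5 and 3.23 in FLAG over input and 3.58 over the V5 vector control. BRD3, a bromodomain protein that binds acetylated histones, held 10, with 4.11, 3.26 and 3.86 in the same lists. Neither had a FLAG peak over the vector control. BRD1, a scaffold of acetyltransferase complexes, stood at 4.14 (V5) and 3.72 (FLAG) over input. CBX1, a heterochromatin protein that binds methylated lysine 9 of histone H3, stood at 3.33 and 3.55, with a FLAG peak of 4.03 over the vector control.

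**Figure D3:**
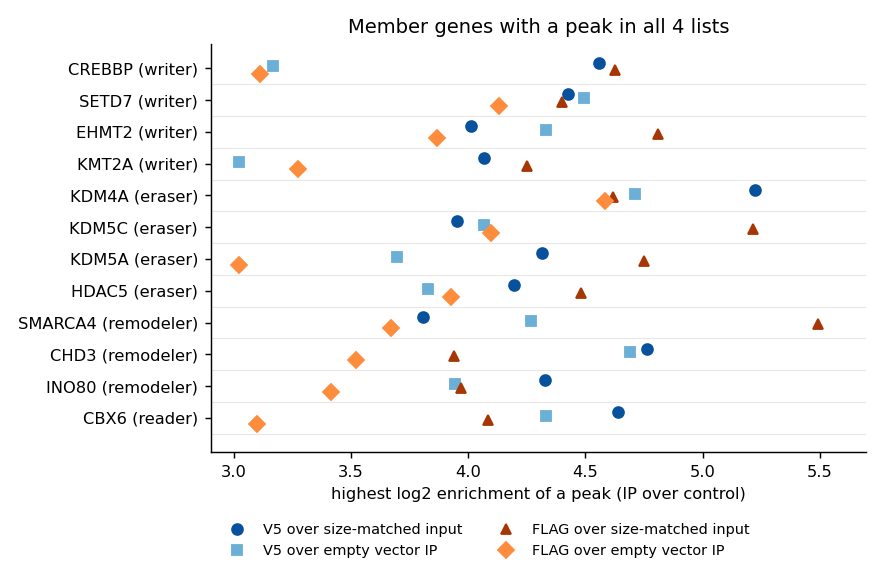
Highest log2 enrichment of any peak in each of the 4 lists (colour and shape) for the 12 members with a peak in all 4, ordered by class; the lists hold no value below 3.00. KDM4A keeps all 4 values above 4.5, while SMARCA4 spans 3.67 to 5.49 and CREBBP 3.11 to 4.63.

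**Figure D4:**
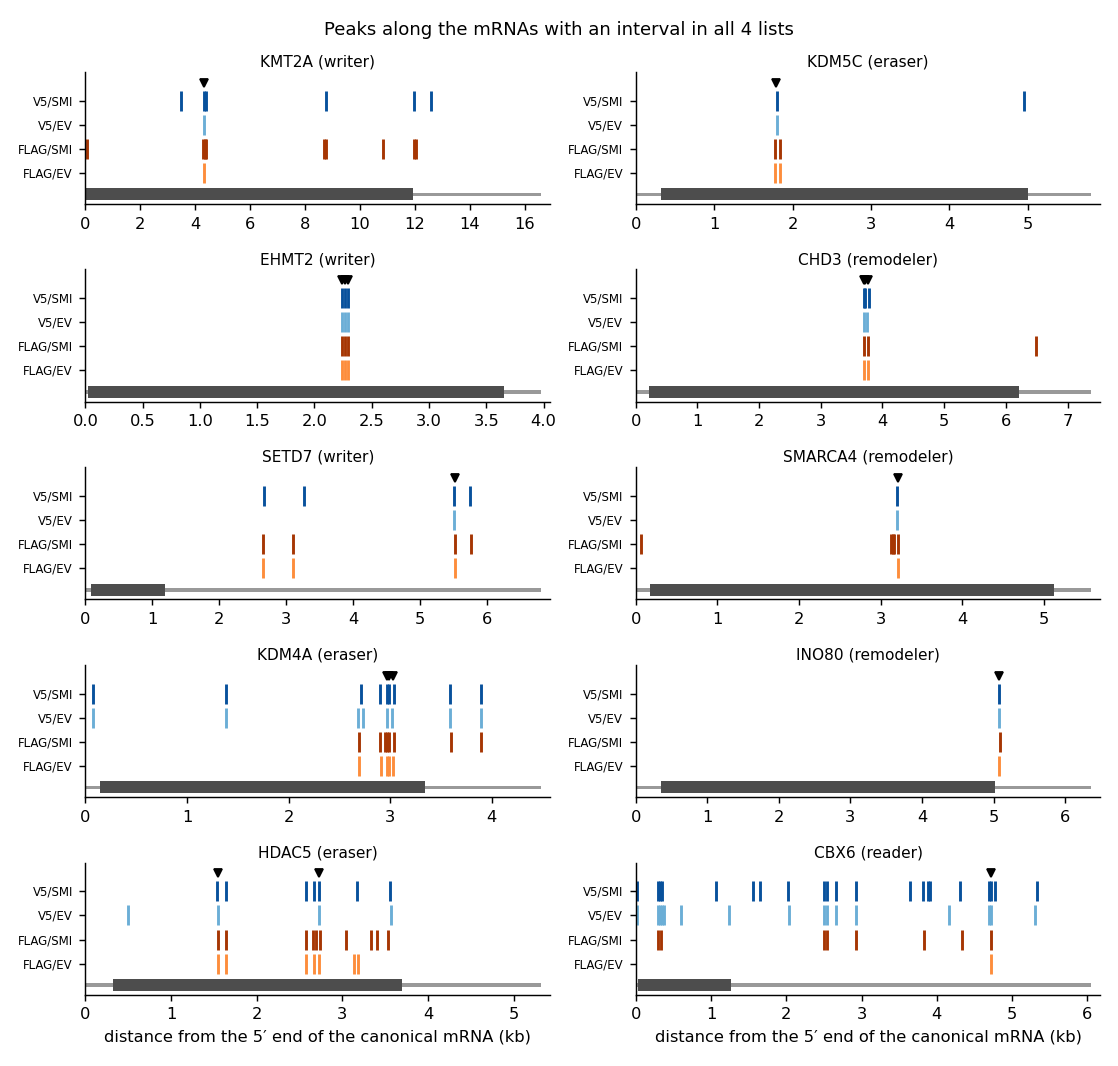
Midpoints of the peaks along the canonical mRNA of the 10 members with a stretch in all 4 lists, 1 row per list (SMI is size-matched input and EV the vector control); the horizontal axis is the distance from the 5′ end in kb, the thick grey bar is the CDS and black triangles mark the shared stretches. EHMT2, CHD3, INO80 and KDM5C show 1 main site, HDAC5 peaks are spread over the CDS, and CBX6 and SETD7 peaks lie mostly in the 3′ UTR.

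V5 and FLAG ordered the members differently. Of the 26 members with a peak over input with both tags, the FLAG maximum was the higher in 13. The difference of FLAG minus V5 ran from −1.44 (KDM7A) to 1.69 (SMARCA4), with a median absolute difference of 0.47, against 0.42 over the 1857 protein-coding genes with both. Pearson's r across these 26 genes was 0.30 and Spearman's rho 0.29, and across the 1857 genes 0.51 and 0.46. These describe genes, which are not independent replicates, and the maxima of a gene can lie at different sites, as in CREBBP and KDM5A. Only genes with peaks past the lower limit of both lists entered, and no interval was computed for the coefficients. Whether members differ from other genes here was not tested.

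The same was seen in which genes appeared. With V5 over input as their only list there were 11 members, among them EHMT1, KAT14, BRD9, ARID1A and KDM4B. FLAG over input was reached by 13 members without a V5 peak over that control, among them KDM5B, KMT2D, KDM1A, DNMT3A, CHD4, CHD8 and SMARCA5. Peak by peak, 59 of the 103 V5 peaks over input (57.3%) overlapped a FLAG peak of that kind, and 61 of the 103 FLAG peaks (59.2%) a V5 peak, near the 53.6% and 55.4% over all protein-coding peaks. By class the V5 shares ran from 43.2% in readers to 69.2% in erasers, whereas in FLAG readers were highest at 72.2%, erasers had 67.9% and remodelers were lowest at 37.0%.

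**Figure D5:**
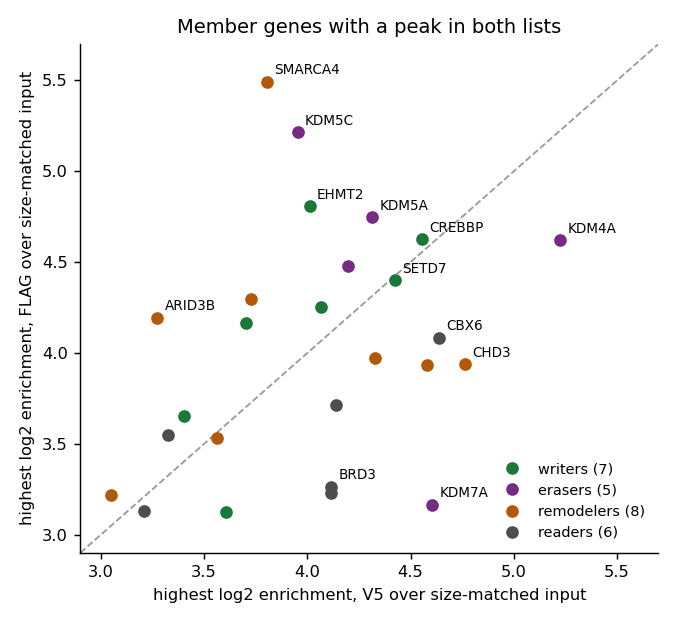
Highest log2 enrichment over input in V5 (horizontal) and FLAG (vertical) for the 26 members with a peak in both lists, coloured by class, with the line of equal values dashed. Points fall on either side of the line, with SMARCA4 at 3.81 and 5.49 and KDM7A at 4.61 and 3.17 the farthest from it.

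The share of peaks also found over the second control was highest for erasers, with wide intervals. Among member peaks of V5 over input, 46 of 103 (44.7%, 35.4 to 54.3%) also met a peak over the vector control, where all protein-coding peaks had 36.5%. In FLAG it was 34 of 103 (33.0%, 24.7 to 42.6%), against 28.1%. Erasers had 57.7% (38.9 to 74.5%) in V5 and 57.1% (39.1 to 73.5%) in FLAG, and without KDM4A and HDAC5 40.0% in each. For readers the shares were 45.9% in V5 and 11.1% in FLAG, and without CBX6 31.25% and 10.0%. Writers had 33.3% and 30% and remodelers 37.5% and 25.9%.

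In base composition and position at exon edges, member peaks lay near all peaks. The median GC content of member peaks was 60.4% in V5 and 57.1% in FLAG over input, against 60.6% and 59.0% over all protein-coding peaks. In V5 the class medians ran from 51.6% in remodelers to 65.8% in readers. Of the CDS peaks of members, 29.1% (V5) and 36.7% (FLAG) reached an internal exon edge, against 35.9% and 39.9%.

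The GU-loop:5nt-stem motif was called in 45 of 103 V5 peaks (43.7%, 34.5 to 53.3%) and 40 of 103 FLAG peaks (38.8%, 30 to 48.5%) over input. Over all protein-coding peaks the shares were 41.7% and 39.7%. The call varied with peak length. In V5 it was found in 15 of 19 member peaks of at least 100 nt (78.9%) and 0 of 7 under 25 nt, against 64.4% and 6.25% of all peaks. In FLAG the share at 100 nt or more was 9 of 18 (50.0%), against 62.2%, and at 50 to 99 nt it was 24 of 46 (52.2%), against 43.2%. Of the 17 shared stretches 7 had the call (41.2%), and of all 749 it was 274 (36.6%). The 7 lie 1 each in EHMT2, SETD7, KDM4A, HDAC5, KDM5C, SMARCA4 and CBX6, the sequences with capitals above, whereas the stretches of KMT2A, CHD3 and INO80 had none. The call was present in wider peaks at the same sites, in KMT2A in both V5 peaks and the FLAG peak over the vector control, and in INO80 in both FLAG peaks, but in no CHD3 peak at its sites. A call is a match to a predicted structure and not evidence of contact.

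Complexes were covered in part, and their counts stand beside the 18.1% of all protein-coding genes found in 1 or more lists. Of 28 BAF and PBAF subunits listed from textbook knowledge, 10 had a peak in at least 1 list, 7 of 14 among the members and 3 of 14 among the rest, with shared stretches in SMARCA4 and in DPF2, which is no member. NuRD had 4 of 15 genes with a peak, COMPASS-type complexes 8 of 18, Polycomb complexes 9 of 28, and the INO80, SRCAP and TIP60 group 9 of 32. For histone acetyltransferase complexes it was 10 of 30, for ISWI complexes 4 of 10, and for lysine 9 methylation with its binding proteins 8 of 15. Over these lists, the subunits with a shared stretch that are no members were DPF2, BPTF, WDR5, SUV39H1, TRIM28 and KANSL3.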

How the data were processed

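eCLIP had been run in 12 libraries of HEK 293T cells, 2 in each of 6 groups. The authors aligned reads to hg38, and the submitters' processing notes name STAR 2.4.0i, cutadapt 1.14, UMI-tools 1.0.0 and SAMtools 1.6. Peaks had been called with the eCLIP pipeline 0.4.0 and joined over both replicates by irreproducible discovery rate. The deposited lists give, for each peak, a −log10 p-value and the log2 enrichment, which the authors computed as a geometric mean of IP over control reads. Replicates are therefore pooled, and depth and the library scaling of the ratio are not given in the sources used here.

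Peaks were assigned to GENCODE version 44 exons on the same strand, and to the 5′ UTR, CDS (stop codon included) or 3′ UTR of the canonical transcript. The lists were intersected as described in the report. The GU-loop:5nt-stem motif was called with ViennaRNA 2.7.2 on each peak with 50 nt of genomic flank, in windows of 70 nt, with pairing probabilities under 0.7 for the U and over 0.5 for every one of the next 5 bases, all inside the peak. Shares have 95% Wilson intervals (Python 3.11.15, numpy 2.4.6, scipy 1.17.1, matplotlib 3.10.9). The steps were tested on simulated data.

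Genes were named if they held a shared stretch, were among the 5 highest of their class by their maxima over input averaged across the tags, or were among the 3 of their class with the most peaks. Others in the text, such as paralogs, were picked after their values were seen. The members and lists were chosen with earlier results of these data known. Alternatives were a log2 of at least 4, a −log10 p of at least 10, other overlap rules, canonical exons, merged peaks, other motif thresholds and trimmed gene lists. No column of other samples was present.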

Additional observations from a re-analysis of the deposited data

How the results depend on the processing

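No paired analysis was possible because the deposited values are pooled over both replicates, and for the same reason no replicate could be left out. The lists hold no peak below their thresholds, so weaker binding was not detectable. Values below follow the order V5 over input, V5 over vector control, FLAG over input, FLAG over vector control where there are 4. With a log2 of at least 4, members with a peak fell to 16, 8, 15 and 6 (12.0, 6.02, 11.3 and 4.51%, against 5.04, 2.27, 4.97 and 1.58% of protein-coding genes), member peaks to 28, 13, 30 and 9, and peaks per kb to 0.0368, 0.0171, 0.0394 and 0.0118, with medians of 4.38, 4.33, 4.39 and 4.13. Shared stretches on members fell to 3 of 160, in 1 (KDM4A) of 96 protein-coding genes, from 17 of 749 in 10 of 414. In FLAG, the share also over the vector control was 23.3%, the CDS share 81.8% for writers and 0 for readers, and the motif share 50%. The share over the other antibody, an alternative added after seeing the data, was 42.9% (V5) and 36.7% (FLAG). With a −log10 p of at least 10, members with a peak were 17, 4, 21 and 9 (12.8, 3.01, 15.8 and 6.77%, against 5.94, 1.64, 6.32 and 1.9%), member peaks 50, 6, 55 and 12, and peaks per kb 0.0657, 0.00788, 0.0722 and 0.0158. The median was 4.19 in V5 over vector control and 3.89 in FLAG over input. The share also over the vector control was 12% (V5) and 23.6% (FLAG), and the CDS share of V5 remodeler peaks 80%. Of 319 shared stretches left, 3 lay on members, in 3 (CBX6, SETD7, SMARCA4) of 147 protein-coding genes. Both thresholds lower counts by construction. An overlap of 1 nt gave 27 shared stretches on members, of 1193, in the same 10 genes, of 447. Stricter pairing thresholds gave motif shares of 13.6% (V5), 10.7% (FLAG) and 11.8% (shared stretches). Under changed settings, the motif, region and vector-control shares were computed for member peaks only, so they have no background here. Among genes with a peak in some list, members had 72.5, 41.2, 76.5 and 31.4%. Canonical exons, merged peaks, removal of genes acting mainly elsewhere, other region rules, longer flanks and overlaps of 50% left every recomputed share and median inside the 95% interval of its main value. Merging touching peaks gave 88, 50, 87 and 31 member peaks. Removing CBX6, added after seeing the data, gave 82, 42, 95 and 33 member peaks and 0.109, 0.0556, 0.126 and 0.0437 per kb, from 103, 58, 103 and 34 peaks and 0.135, 0.0762, 0.135 and 0.0447 per kb.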
